A study of Homo sapiens with 12 samples.

Results

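GTSF1 and 8 further genes of the germline piRNA pathway were followed across 12 RNA-Seq libraries of human B-lineage tumour lines. The 9 genes, of 26210 in the deposited table, were chosen by name after their FPKM in classical Hodgkin lymphoma (cHL) and control lines had been seen, with GTSF1 chosen by its high level in the cHL lines, so that contrast is given for them as a description without a test. The cHL lines were KM-H2, L1236 and L428, all untreated and grown in IMDM. The controls, untreated and grown in RPMI, were Namalwa, a Burkitt's lymphoma line, and Reh, a B-cell precursor leukaemia line labelled as pro-B. Reh was also treated with phorbol myristate acetate (PMA), an activator of protein kinase C, at 2 ng/ml. Each of the 6 groups had 2 libraries of total RNA depleted of ribosomal RNA. Each line is 1 tumour, and medium differed with the tumour type, so a difference between cHL and control lines cannot be told apart from one between media. The labels do not state separate cultures, so p-values measure the spread between these libraries only.

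piRNAs are small RNAs of the germline that guide PIWI proteins, a branch of the Argonaute family, to transposon transcripts, which are cleaved or silenced at the chromatin. Their precursors are cut at the mitochondrial surface, loaded into PIWI proteins on Tudor-domain scaffolds and methylated at the 3′ end. GTSF1 is a small zinc-finger protein that binds PIWI proteins and is needed for them to act on their targets. GTSF1, the PIWI proteins, MAEL and DDX4 are known chiefly from the testis.

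The sequences upstream of GTSF1, HENMT1 and TDRKH are shown because these genes were at or near 0 FPKM in some lines and well expressed in others. Each is the 250 bases before the transcription start in RefSeq (GRCh38.p14), written 5′ to 3′ on the gene's own strand, with CpG dinucleotides in capitals. All are on the minus strand, at chr12:54473603-54473852 for GTSF1, chr1:108661475-108661724 for HENMT1 and chr1:151790501-151790750 for TDRKH.
GTSF1: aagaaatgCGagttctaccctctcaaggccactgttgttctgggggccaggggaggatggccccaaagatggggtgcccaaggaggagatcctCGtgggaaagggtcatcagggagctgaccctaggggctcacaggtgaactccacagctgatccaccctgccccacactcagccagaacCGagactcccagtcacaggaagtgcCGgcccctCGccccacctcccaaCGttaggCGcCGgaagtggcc
HENMT1: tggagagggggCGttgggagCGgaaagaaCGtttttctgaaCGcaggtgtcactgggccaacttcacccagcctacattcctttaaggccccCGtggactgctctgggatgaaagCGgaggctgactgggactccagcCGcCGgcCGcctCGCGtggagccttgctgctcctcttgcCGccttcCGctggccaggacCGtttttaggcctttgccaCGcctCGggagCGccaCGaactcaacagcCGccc
TDRKH: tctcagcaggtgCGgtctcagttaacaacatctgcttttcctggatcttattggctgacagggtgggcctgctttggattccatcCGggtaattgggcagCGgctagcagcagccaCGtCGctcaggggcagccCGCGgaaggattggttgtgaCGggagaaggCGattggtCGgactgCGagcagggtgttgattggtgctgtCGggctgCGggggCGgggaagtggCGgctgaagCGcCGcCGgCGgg
The GTSF1 window held 8 CpG, a number reached by 56.3% of 35116 promoters. HENMT1 and TDRKH held 19 each, reached by 34.6% of promoters, and the median promoter held 11. Motifs were searched on both strands after the sequences had been read. CCGGAAGT occurred once upstream of GTSF1 and in 3.42% of promoters. CCAAT occurred 5 times upstream of TDRKH. At least 5 occurred in 0.319% of promoters and at least 1 in 32.0%. HENMT1 had neither. A match is a description of the letters and not a bound site. RefSeq lists 2 starts for HENMT1 and for TDRKH, of which the first listed was used.

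GTSF1 was expressed at a high level in all cHL lines and was at or near 0 in every other library. It lies at chr12:54849734-54867386 on the minus strand (GRCh37). Its level was 135 and 173 FPKM in the 2 KM-H2 libraries, 42.7 and 59.5 in L1236, and 146 and 163 in L428. It was listed at 0 in both Namalwa libraries, at 0 and 0.333 FPKM in Reh, and at 0 in both PMA-treated Reh libraries. The groups did not overlap. The mean of the cHL lines exceeded that of the control lines by 6.64 on the log2(FPKM + 1) scale. In KM-H2 and L428 no other member exceeded 23.1 FPKM. In L1236 the gap was smaller, with MOV10 at 28.8 and 31.6 FPKM and HENMT1 at 24.2 and 30.2.

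**Figure D1:**
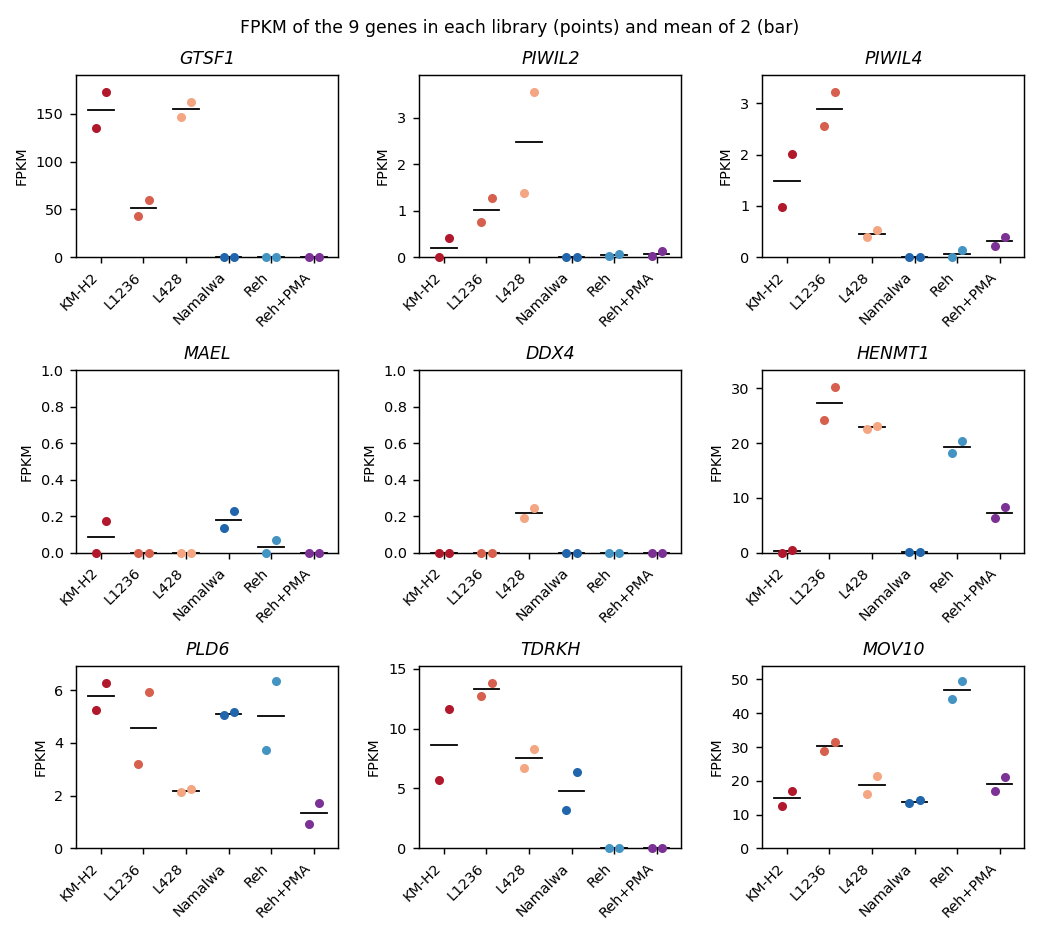
FPKM (y axis, linear, own scale in each panel) of the 9 genes in each line or treatment (x axis), with 1 point per library and a bar at the mean of 2. GTSF1 lies between 42.7 and 173 in the 6 cHL libraries and at most at 0.333 elsewhere, while HENMT1 is near 0 in KM-H2 and Namalwa and TDRKH is at 0 in Reh.

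The PIWI proteins themselves were low. PIWIL2, which acts in the cytoplasm on transposon transcripts, reached 1.39 and 3.56 FPKM in L428 and 0.764 and 1.28 in L1236. In KM-H2 it was 0 and 0.410, which overlapped the controls, where it was listed at 0 in Namalwa and was 0.0270 and 0.0799 in Reh. PIWIL4 (chr11:94277006-94354587), the PIWI protein of chromatin silencing, was 2.57 and 3.23 FPKM in L1236, 0.976 and 2.01 in KM-H2, and 0.393 and 0.531 in L428. It was listed at 0 in Namalwa and was 0 and 0.135 FPKM in Reh, so all 6 cHL libraries lay above all 4 control libraries. The same held for GTSF1 and for no other member, that is for 2 of the 9, and 9.50% of all 14679 genes tested showed it. Both reached 1 FPKM only in cHL lines, GTSF1 was chosen by its level there, and MAEL and DDX4 were not tested. The count is therefore not read against that share. The cHL minus control difference was 1.22 for PIWIL4 and 0.95 for PIWIL2 on the log2(FPKM + 1) scale. With 0.1 added in place of 1 these became 3.46 and 2.76, so their size depends on the pseudocount.

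The nuclear factor MAEL (chr1:166944819-166991451) and the Vasa helicase DDX4 (chr5:55033845-55112985), both needed for piRNA silencing in the germline, stayed below 1 FPKM throughout and failed the filter on low values, which the other 7 members passed (1 FPKM or more in at least 2 libraries). MAEL was highest in Namalwa, at 0.133 and 0.228 FPKM, and was 0 in L1236 and L428. DDX4 was above 0 only in L428, at 0.192 and 0.247 FPKM.

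The enzymes HENMT1 and PLD6 differed from GTSF1 in their order across lines. HENMT1, the methyltransferase that protects the 3′ end of piRNAs, lies at chr1:109190912-109204148. It was 24.2 and 30.2 FPKM in L1236, 22.6 and 23.1 in L428 and 18.2 and 20.4 in Reh. It was near 0 in KM-H2 (0 and 0.564 FPKM) and in Namalwa (0.134 and 0.228), so each side of the gap held cHL and control lines. PLD6 (chr17:17104309-17109647), the mitochondrial nuclease that cuts piRNA precursors, was expressed in every line. It was 5.26 and 6.27 FPKM in KM-H2, 3.20 and 5.91 in L1236, 2.13 and 2.25 in L428, 5.05 and 5.17 in Namalwa and 3.73 and 6.33 in Reh.

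TDRKH, a Tudor-domain scaffold on the mitochondrion, lies at chr1:151742583-151763892 on the minus strand. Its level was 12.7 and 13.8 FPKM in L1236, 5.70 and 11.6 in KM-H2, and 6.71 and 8.30 in L428. In Namalwa it was 3.21 and 6.36, so the control range overlapped KM-H2, and in all 4 Reh libraries, treated or not, it was listed at 0. The cHL minus control difference was 2.13 on the log2(FPKM + 1) scale and 3.79 with a pseudocount of 0.1. TDRKH overlaps OAZ3 on the opposite strand. The kit keeps strand, but whether reads were counted by strand is not given in the sources used here. OAZ3 was 1.25 and 2.71 FPKM in untreated Reh and 0.115 and 0.345 in PMA-treated Reh.

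MOV10 (chr1:113215763-113243378), an RNA helicase of many tissues that restricts retrotransposons, was expressed throughout. It was highest in Reh (44.3 and 49.7 FPKM), then L1236 (28.8 and 31.6), and was 16.1 and 21.5 in L428, 12.6 and 17.0 in KM-H2 and 13.4 and 14.3 in Namalwa. The cHL minus control difference was -0.33 for MOV10, -0.30 for PLD6 and 0.95 for HENMT1 on the log2(FPKM + 1) scale.

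The lines were next compared with each other. The genes were chosen on cHL against control lines, but the level in every library was known at that point, so these p-values are not independent of the choice. A gene was called where it differed at least 2-fold at an adjusted p below 0.05 by limma (Benjamini-Hochberg over all genes tested). GTSF1 was lower in L1236 than in KM-H2 by 1.58 on the log2(FPKM + 1) scale (SE 0.23, adjusted p = 0.00066). L428 exceeded L1236 by 1.59 (adjusted p = 0.00083), and KM-H2 and L428 differed by 0.01, with a 95% interval of -0.51 to 0.54. The order was thus KM-H2 and L428 together, then L1236, then the other groups. With a pseudocount of 0.1 both differences kept their size (-1.60 and 1.61) while the adjusted p rose to 0.0561 and 0.0619.

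Of the 7 tested members, 2 were called between L1236 and KM-H2, where 26.6% of all genes were called. HENMT1 was higher in L1236 by 4.49 (SE 0.25, adjusted p = 1.3e-06), and GTSF1 was the other. Between L428 and KM-H2 3 were called, again beside 26.6% of all genes. HENMT1 was higher in L428 by 4.25 (adjusted p = 2.7e-06) and PIWIL2 by 1.48 (adjusted p = 0.0034), and PLD6 was lower by 1.08 (adjusted p = 0.021). PIWIL2 would not have passed the filter without the L428 libraries, and with no filter its adjusted p was 0.0065. The PLD6 call was lost without any 1 of 3 libraries, 2 of L428 and 1 of KM-H2, with adjusted p values up to 0.0903. Between L428 and L1236 2 members were called, beside 21.9% of all genes: GTSF1, and PIWIL4, which was lower in L428 by 1.41 (adjusted p = 0.0008). PIWIL4 would not have passed the filter without the L1236 libraries, so this count is not read against that share. Among the cHL lines L1236 had the lowest GTSF1 and the highest PIWIL4, and KM-H2 had high GTSF1 and almost no HENMT1.

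Between the control lines, 3 of the 7 tested members were called, where 19% of all genes were. GTSF1, PIWIL2 and PIWIL4 passed the filter through cHL lines and were at most 0.333 FPKM in both control lines. They could not be called here, so the count is not read against that share. HENMT1 was lower in Namalwa than in Reh by 4.10 (SE 0.25, adjusted p = 3.5e-06) and MOV10 by 1.69 (adjusted p = 0.00036). TDRKH was higher in Namalwa by 2.48 (adjusted p = 0.00053). GTSF1 differed by -0.21, with a 95% interval of -0.74 to 0.32, at levels near 0 in both.

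PMA was tested in Reh to ask whether an inflammatory type of stimulus alters these genes. GTSF1 was listed at 0 in both treated libraries. Of the 7 tested members 3 fell and 0 rose, by limma and equally at an unadjusted p under 0.05, where 11.8% of all genes were called lower and 10.5% higher. GTSF1, PIWIL2, PIWIL4 and TDRKH passed the filter through other lines and were at most 0.333 FPKM in untreated Reh, so they could not be called lower and the count is not read against that share. PLD6 went from 3.73 and 6.33 FPKM to 0.942 and 1.70, a fall of 1.36 (SE 0.30, adjusted p = 0.0095). HENMT1 went from 18.2 and 20.4 FPKM to 6.26 and 8.28, and MOV10 from 44.3 and 49.7 to 16.8 and 21.1. HENMT1 fell by 1.30 (adjusted p = 0.0049) and MOV10 by 1.27 (adjusted p = 0.0027). PIWIL4 was 0.214 and 0.404 FPKM after PMA, with a difference of 0.29 that did not pass (adjusted p = 0.32).

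Ribosomal protein genes took 5.92% to 6.57% of summed FPKM in the PMA libraries and 15.99% to 16.7% in Reh, and the part of this in the result was not tested. With each library rescaled to 1 total, the adjusted p became 0.0562 for PLD6 and 0.0535 for MOV10. HENMT1 lost its call at a pseudocount of 0.1 (difference -1.40, adjusted p = 0.162). PLD6 also lost it without 1 Reh library (adjusted p = 0.0793) or 1 PMA library (0.0788), while its difference stayed between -1.68 and -1.05. The comparison shares its Reh libraries with the one against Namalwa.

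**Figure D2:**
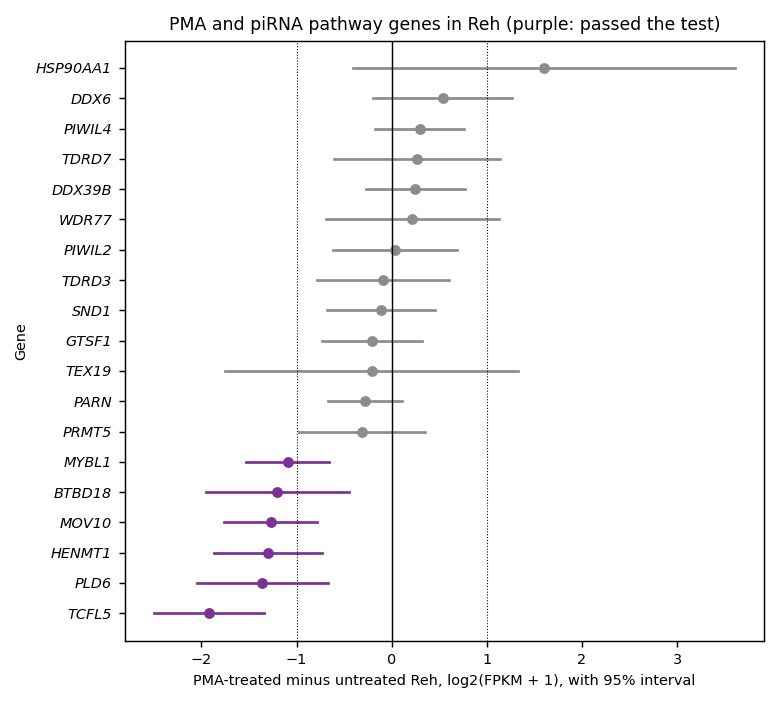
Difference between PMA-treated and untreated Reh on the log2(FPKM + 1) scale (x axis, point with 95% interval, dotted lines at 2-fold) for the piRNA pathway genes tested and above 0 in Reh (y axis). The 6 purple genes passed the test, all lower with PMA, from TCFL5 at -1.92 to MYBL1 at -1.09, and no gene passed in the other direction.

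To place the 9 genes, 37 further pathway genes were listed by role, making 46. Of the 46, 23 reached 1 FPKM in any library and 23 never did, among them GTSF1L, MOV10L1, TDRD1 and PIWIL3, the paralogues and partners of the germline machinery. In the cHL against control comparison 15 of the 37 could be tested, with 2 called higher and 3 lower, where 13.7% of all genes were called higher and 10.9% lower. Their median difference was -0.11, against 0.02 for all genes. TEX15, 1 of the 2 higher, passed the filter only through cHL lines, so the count is not read against that share.

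The genes called higher were TEX15 and TEX19, which act in germline transposon silencing. TEX15 was 1.5 and 7.84 FPKM in KM-H2 and 2.38 and 2.59 in L428, but 0.0166 and 0.0178 in L1236, and was listed at 0 in all other libraries (difference 1.35, SE 0.29, adjusted p = 0.0033, in a test it entered only through KM-H2 and L428). TEX19 was 8.40 and 37.9 FPKM in KM-H2 and 14.6 and 53.2 in L428, and 0.0741 and 0.0938 in L1236, below the controls (1.00 to 4.47). Its difference was 1.42 (adjusted p = 0.021). Both were near 0 in L1236, the cHL line with the lowest GTSF1. The TEX15 and TEX19 count of 2 became 1 without 1 Namalwa or 1 Reh library.

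Lower in cHL were TCFL5, a transcription factor of meiotic cells, and PRMT5 and WDR77, which together methylate arginines that Tudor domains bind. PRMT5 was 20.1 to 29.5 FPKM in the 6 cHL libraries and 52.3 to 84.7 in the 4 controls (difference -1.43, adjusted p = 0.00021). WDR77 was 7.78 to 28.9 FPKM against 42.6 to 102 (-1.92, adjusted p = 0.00022). TCFL5 was 2.32 to 12.2 FPKM against 21.4 to 27.8 (-1.79, adjusted p = 1.8e-05). With the 5 line means as units limma called 0 of the 15 in either direction, and at an unadjusted p under 0.05 counted 0 higher and 3 lower. Over all genes it then called 47 higher and 33 lower.

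**Figure D3:**
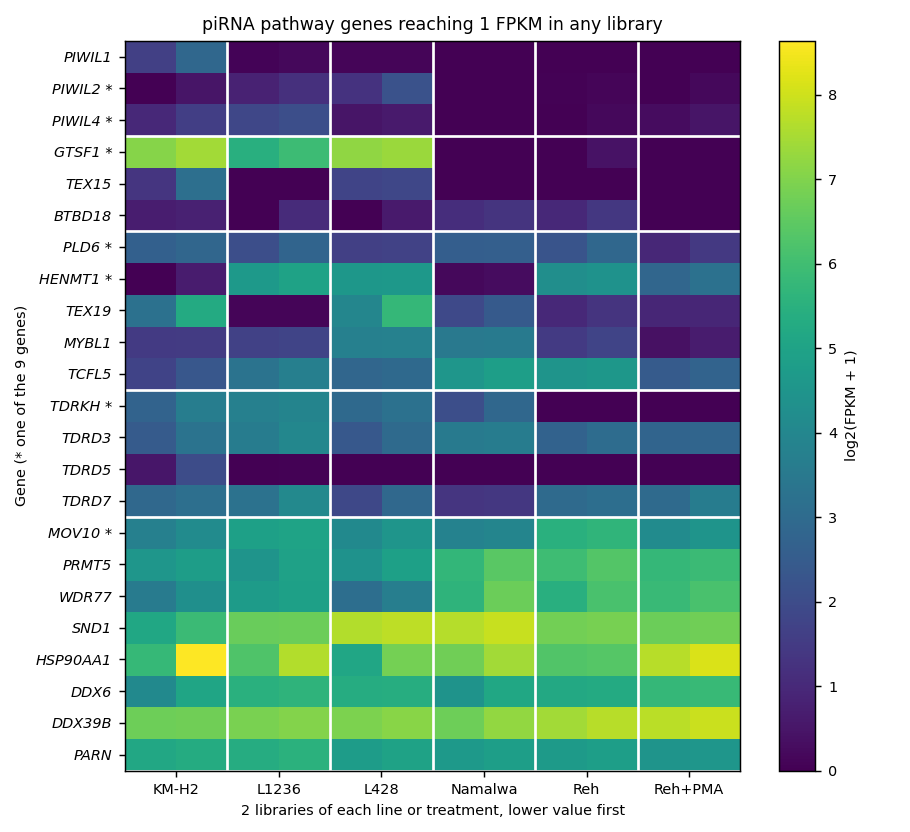
Colour shows log2(FPKM + 1) of the 23 pathway genes that reach 1 FPKM in any library (rows, grouped by role, asterisks mark the 9 genes) in the 12 libraries (columns, the lower of each pair first). GTSF1 is the only one of the PIWI and nuclear factor groups with a strong signal in all 3 cHL lines, and PRMT5 and WDR77 are darker there than in the controls.

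Some pathway genes were high in 1 or 2 lines. PIWIL1, a PIWI protein of later germ cells, was 2.14 and 6.34 FPKM in KM-H2 and at most 0.133 in any other library. Its cHL against control difference of 0.84 was below 2-fold (adjusted p = 0.0058). TDRD5 was 0.451 and 2.99 FPKM in KM-H2 and at most 0.0379 elsewhere, and was not tested because 1 library alone reached 1 FPKM. MYBL1, a transcription factor that switches on piRNA genes in meiosis, was 12.7 FPKM in both L428 libraries, 10.3 and 10.9 in Namalwa and at most 2.40 elsewhere. Between L1236 and KM-H2 3 of the 22 tested pathway genes were higher and 4 lower, beside 26.6% of all genes called in either direction. The counts were 4 and 2 for L428 against KM-H2 (26.6% of all genes), 5 and 4 for L428 against L1236 (21.9%), and 2 and 3 for Namalwa against Reh (19%). PIWIL1, counted lower in both comparisons with KM-H2, passed the filter through KM-H2 alone, so these counts are not read against the shares.

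Of 9 broadly expressed partners, 8 were present above 1 FPKM in every library, the exception being KIF17. SND1, a Tudor-domain nuclease, was 34.2 and 58.4 FPKM in KM-H2, 99.4 and 103 in L1236 and 198 and 220 in L428, and was called between every pair of these lines. PARN, an exonuclease that trims RNA 3′ ends, was 26.3 to 44.7 FPKM in cHL and 24.4 to 28.0 in the controls, a difference of 0.42 (adjusted p = 0.010) that was under 2-fold. SND1 differed by -0.69 in the same contrast (adjusted p = 0.0057), also under 2-fold, and DDX39B, DDX6 and HSP90AA1 did not pass. HSP90AA1, a chaperone used in loading small RNAs, ranged from 53.8 to 398 FPKM between the 2 KM-H2 libraries. Of the Tudor-domain genes, TDRD3 was 4.24 to 14.9 FPKM in every library. TDRD7 was lowest in Namalwa, at most 1.61 FPKM, and was called lower there than in Reh by 1.69 (adjusted p = 0.011).

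In PMA-treated Reh 6 of the 22 tested pathway genes fell and 0 rose, beside 11.8% and 10.5% of all genes and with the same limit for genes near 0 in Reh, with a median difference of -0.10 against -0.03 for all genes. The count of 6 became 3 without 1 PMA library, and 3 with each library rescaled to 1 total. The 3 that were no members were TCFL5 (-1.92, adjusted p = 0.00073), BTBD18 (-1.20, adjusted p = 0.023) and MYBL1 (-1.09, adjusted p = 0.0032), all transcription regulators known from meiotic piRNA loci. MYBL1 went from 1.76 and 2.40 FPKM to 0.294 and 0.596. BTBD18 went from 1.01 and 1.63 FPKM, close to the filter level, to 0 in both treated libraries.

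The Argonaute and microRNA machinery, the somatic counterpart of the pathway, had 0 of 13 genes called by limma in cHL against control lines, with a median difference of -0.05, beside 13.7% of all genes called higher and 10.9% lower. At an unadjusted p under 0.05 there were 1 higher, DROSHA by 0.77, and 2 lower, DICER1 by 0.67 and DGCR8 by 0.63. Their adjusted p by limma was 0.0059, 0.00045 and 0.019, so only the 2-fold limit kept them from a call. After PMA only AGO2, the Argonaute that slices its targets, was called, rising from 13.8 and 16.9 FPKM to 70.4 and 92.2 (difference 2.32, adjusted p = 0.00064).

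Of 35 other germline and meiosis genes 16 could be tested. In cHL 6 were called higher and 2 lower, DMC1 by 1.52 and HSPA2 by 1.06, where 13.7% of all genes were called higher and 10.9% lower. Of the 6, MAGEA1, MAGEA4, SOHLH2, SSX1 and SYCP2 passed the filter only through the 1 cHL line where each was high, so the count is not read against that share. With line means as units 1 was higher and 0 lower at an unadjusted p under 0.05. After PMA 0 were called (limma, with 0 higher and 1 lower at an unadjusted p under 0.05), where 10.5% and 11.8% of all genes were. DMC1, a meiotic recombinase, was present in several lines, at 14.1 and 15.8 FPKM in Reh and 6.77 and 14.2 in L428. Others were high in 1 line. MAGEA4 was 629 and 710 FPKM in KM-H2 and listed at 0 elsewhere. SOHLH2 was 31.5 and 37.1 in KM-H2, SYCP2 13.6 and 20.7 in L1236, and SMC1B 5.07 and 5.53 in L428. PRAME, a cancer-testis antigen, was 34.2 to 95.6 FPKM in all cHL libraries and at most 2.57 in the controls, and was the one gene called higher in this list that was high in all cHL lines.

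Across the 12 libraries the 5 genes whose log2(FPKM + 1) was most like that of GTSF1, among 5673 whose group means spanned at least 2 on that scale, were TBC1D12 (Pearson r = 0.996), KCNMA1 (0.993), PARM1 (0.991), CTTN (0.988) and IL32 (0.987). None belongs to the pathway. The r values describe libraries that fall into cHL and other lines and carry no test. For pathway genes r was 0.78 for TDRKH, 0.74 for TEX15, 0.72 for PARN and 0.69 for both PIWIL2 and PIWIL4, and 610 genes had a higher r than TDRKH. By rank the order differed, with Spearman's rho of 0.89 for TEX15, 0.88 for PIWIL1 and 0.68 for TDRKH. TEX15 and PIWIL1 were each at 0 in 6 libraries and at most 0.133 FPKM in L1236, so their ranks rest partly on values near 0. Pearson's r was 0.54 for PIWIL1, 0.13 for HENMT1, 0.12 for PLD6 and -0.93 for PRMT5.

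**Figure D4:**
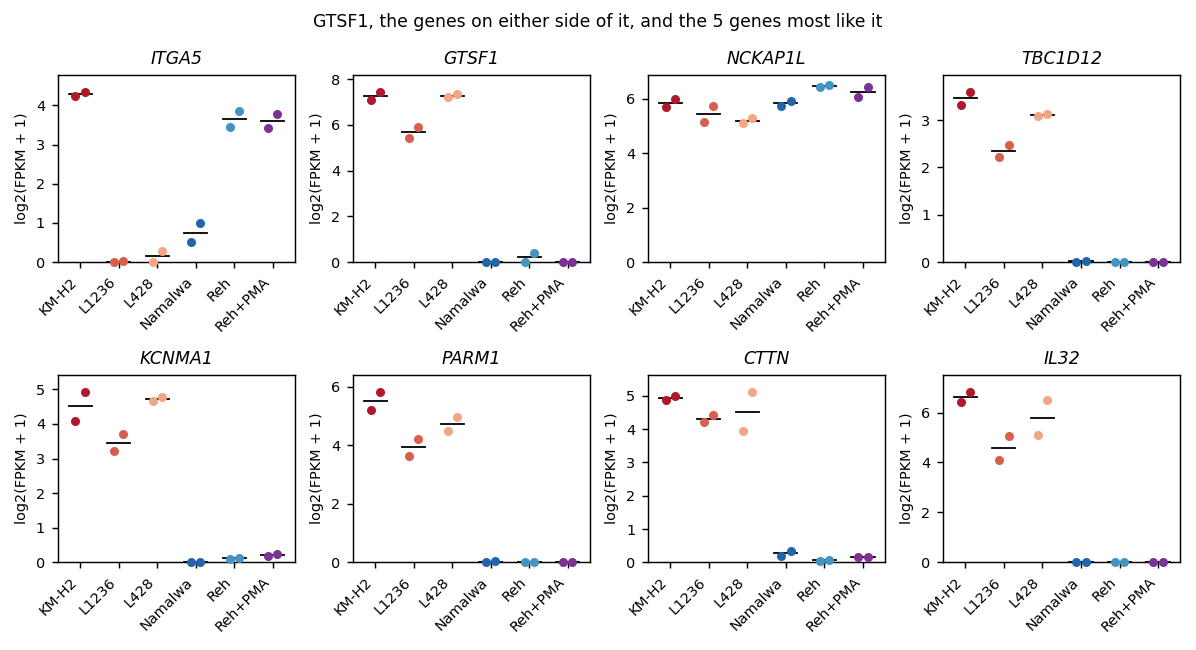
log2(FPKM + 1) (y axis) in each line or treatment (x axis) for GTSF1, its neighbours ITGA5 and NCKAP1L and the 5 genes with the most similar values, with 1 point per library and a bar at the mean. The 5 similar genes are high in all 3 cHL lines and near 0 elsewhere, whereas ITGA5 is high in KM-H2 and Reh and NCKAP1L is high in every library.

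The genes beside GTSF1 had other patterns. ITGA5, an integrin subunit 36.7 kb away, was 18.0 and 19.3 FPKM in KM-H2 and 9.97 and 13.6 in Reh, but at most 0.219 in L1236 and L428, where GTSF1 was high. NCKAP1L, a haematopoietic actin regulator 24.2 kb away, was 33.4 to 89.3 FPKM in all 12 libraries. ZNF385A and PDE1B were at most 2.78 and 4.11 FPKM, and GPR84 and PPP1R1A were near 0.

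The libraries held 10835 to 12115 genes at 1 FPKM or more, and FPKM does not give their read depth. From the steps between low values, 1 fragment was worth 0.600 to 2.59 times as much FPKM as in a Reh library in 11 of them, most in KM-H2 (1.70 and 2.59), so low values there rest on fewer fragments. The L1236 library at 0.429 gave a less clear step. Correlation of the 2 libraries of a group was 0.906 to 0.922 in the cHL lines and 0.969 to 0.985 in the others. By limma all 9 B-lineage genes were called lower in cHL (10.9% of all genes) and 7 of 9 Hodgkin line genes higher (13.7%). After PMA 10 of 12 PMA response genes were called higher (10.5% of all genes). The lists were chosen with these data known, so these counts are no check of the labels and are not read against the shares. CCL22 and CSF1R were the Hodgkin line genes not called. CSF1R was 11.2 and 11.8 FPKM in PMA-treated Reh and at most 2.05 in cHL. TNFRSF8 (CD30) was 19.1 to 63.7 FPKM in cHL and at most 0.505 in controls. Of 14 markers of T, myeloid and supportive cells, 9 reached 1 FPKM in some library, and their summed level was 7.96 to 94.1 FPKM in cHL and 0.627 to 37.5 in controls. Of the 8 tested, 5 were called higher in cHL (CD3D, CD4, CD68, AMH and SOX9) and 1 lower (MPO), beside 13.7% and 10.9% of all genes. CD3D, CD4 and SOX9 passed the filter only through cHL lines, so the count is not read against those shares. With line means as units 0 were higher or lower at an unadjusted p under 0.05. CD3D was 13.5 and 22.5 FPKM in KM-H2 and listed at 0 elsewhere, and CD68 was 9.86 and 23.9 in L428 and 1.26 and 5.73 in KM-H2. CD8A and COL1A2 were at or near 0 in every library. The part of these markers in the GTSF1 levels was not tested. Fewer expressing cells and less RNA per cell cannot be told apart in such bulk libraries. The ribosomal protein share was 5.81% in 1 L428 library and 10.1% in 1 L1236 library, against 17.8% to 22.5% in the other cHL libraries, and its part in the differences between cHL lines was not tested.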

How the data were processed

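RNA was extracted from 5 cell lines and sequenced in 12 libraries made with a stranded total RNA kit after ribosomal RNA depletion. The deposited table holds FPKM values that the authors made; the submitters' processing notes name TopHat2 2.0.11, Cuffnorm 2.2.1 and hg19. Gene annotation, strand setting, scaling option and the duration of PMA treatment of these libraries are not given in the sources used here. More than 1 sequencer model was used and the model of each library is not given. Column names end in 0 or 1 and the labels number replicates otherwise, so libraries are known by group only. Values were analysed as log2(FPKM + 1) with limma 3.58.1 (R 4.3.3, trend, 6 groups in 1 fit), over 14679 genes at 1 FPKM or more in at least 2 libraries. A call needed an adjusted p (Benjamini-Hochberg) under 0.05 and a difference of at least 1 on the log2 scale. The script was tested on simulated data. Other pseudocounts, filters, scalings, a block on the column suffix and left-out libraries were tried. Tables were handled in Python 3.11.15.

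The 9 genes and all lists were chosen with earlier results of these data known. Named were the 9 genes, pathway genes reaching 1 FPKM, the 5 genes most like GTSF1, its 3 nearest genes on each side, and called genes of the other lists (of these, examples are printed). Some genes outside this rule were also named, such as GTSF1L, MOV10L1, TDRD1, PIWIL3, KIF17, OAZ3, DICER1, CD8A and COL1A2. Gene positions are from GENCODE v44 lifted to GRCh37, and promoters from RefSeq GRCh38.p14. The position of PIWIL2 and protein sequences are not reported here. FPKM gives no read depth, so no counting interval is given.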

Additional observations from a re-analysis of the deposited data

How the results depend on the processing

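Counts of called pathway genes (9 members left out for cHL against control lines) moved by over 1.5 times as follows, and no call changed direction. For cHL against control lines the 2 higher and 3 lower became 5 and 5 at any fold and 0 and 0 with line means as units. In PMA-treated Reh the 6 lower became 3 with each library rescaled to 1 total, and 0 higher became 1 with only the groups compared in the fit. For L1236 against KM-H2 the 3 higher became 6 with a pseudocount of 0.1 and 7 at any fold. For L428 against KM-H2 the 2 lower became 1 after rescaling and 1 with the Hodgkin columns ending in 1. For L428 against L1236 the 4 lower became 2 with only the groups compared, 2 with the columns ending in 0 and 1 with those ending in 1. The column splits were chosen after seeing the data, and the cause of these moves was not tested. Leaving out 1 library at a time gave 1 to 3 higher for cHL against control lines, 3 to 5 lower for PMA, 3 to 5 higher for L1236 against KM-H2, 0 to 4 lower for L428 against KM-H2, and 3 to 4 higher and 2 to 3 lower for L428 against L1236. The libraries that moved these counts were 1 Namalwa, 1 Reh, 1 PMA, both KM-H2, both L1236 and both L428 libraries. Over the tests of single members, 408 of 447 settings kept direction and call. In 11 a difference changed direction, and 0 of these were called. For L428 against KM-H2 GTSF1 (0.01) became -0.26 after rescaling and -0.24 with the columns ending in 1, and ranged from -0.17 to 0.19 with 1 library left out. TDRKH there (-0.12) became 0.20 with the columns ending in 0 and ranged from -0.57 to 0.34. PLD6 ranged from -0.68 to 0.035 for L1236 against KM-H2 and from -0.26 to 0.37 for Namalwa against Reh, and PIWIL2 from -0.048 to 0.12 with PMA. The GTSF1 difference between cHL and control lines was 6.64, 6.87 after rescaling and 9.52 with a pseudocount of 0.1, which also took TDRKH from 2.13 to 3.79, PIWIL4 from 1.22 to 3.46, PIWIL2 from 0.95 to 2.76 and HENMT1 from 0.95 to 1.23. A replicate block on the column suffix (0 or 1), which the labels do not tie to their replicate numbers, was added after seeing the data. It left every count of called pathway genes as it was, with 6 lower for PMA and 2 higher and 3 lower for cHL against control lines. Libraries with the same suffix deviated together between cHL lines (r across genes of 0.30 to 0.68) and between Namalwa and Reh (0.36), and less between the other groups (-0.04 to 0.19), a hint from the data and not from the design. With separate blocks for cHL and untreated control lines 1 pathway gene was higher with PMA in place of 0, and no other count moved by over 1.5 times. Neither block changed a member's call. Each group has 2 libraries and FPKM hides depth, which limits low genes such as PIWIL2 and PIWIL4.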
